A study of Homo sapiens with 8 samples.

Results

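Replication-dependent histone genes encode the linker histone H1 and the core histones H2A, H2B, H3 and H4, around which DNA is wound. The set described here was chosen by name and Ensembl gene ID, with earlier results of these data known. Its counts beside all genes are therefore descriptive. The set held 34 of the 60666 gene rows of the count table. These were 4 genes of H1, 8 of H2A, 11 of H2B, 5 of H3 and 6 of H4. Of these, 33 had reads and all 33 passed the filter on low counts, among 17351 genes tested. The remaining gene, H3C4, had 0 reads in all libraries, which allows up to 0.0259 CPM, the unit of counts relative to library size (3 of all 115709626 reads, counting error only). The genes lie in clusters, 32 on chromosome 6 between positions 26026896 and 27893891 and 2 on chromosome 1 between 149884459 and 149887411 (GRCh38.p14).

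The cells were 786-0, an established human line from a clear cell renal carcinoma. All were transfected for 48 h with a synthetic biotinylated microRNA duplex, and the RNA retrieved with the biotin was sequenced. The 3 groups differed in the duplex: a control microRNA (3 libraries), miR-2355-5p (2 libraries) and miR-1271-5p (3 libraries). Nothing in the labels tells if replicates were grown and transfected separately; p-values therefore reflect only how far these libraries scatter, and that scatter may be technical. Total counts ran from 4122875, in control replicate 2, to 22864693 reads per library. The labelled kidney epithelial identity was not checked against markers, because the table gives Ensembl IDs without names and only the histone IDs were paired with symbols.

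Histone mRNAs of this kind are made in S phase, when new DNA has to be packaged. Most of them end in a conserved stem-loop instead of a poly(A) tail. The stem-loop is bound by the stem-loop binding protein SLBP and cut free with the help of the U7 small nuclear ribonucleoprotein, and the mRNAs are degraded quickly when DNA synthesis stops. Many genes for H2A and H2B stand head to head and share the stretch of DNA between their starts. MicroRNAs guide Argonaute proteins to RNAs that pair with their seed, bases 2 to 8.

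The mature sequences of both microRNAs are shown from RefSeq (GRCh38.p14) because they are what the pulldowns differed in; capitals mark the seed. They lie on chromosome 2, minus strand, from 207110043 to 207110063, and on chromosome 5, plus strand, from 176367960 to 176367981. The seeds differ. Histone transcripts were not searched for matches, since no transcript sequence was used here.
hsa-miR-2355-5p: aUCCCCAGauacaauggacaa
hsa-miR-1271-5p: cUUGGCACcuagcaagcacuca

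Upstream sequences are shown for a head-to-head pair in which H2BC4 stood apart from its partner, for a pair in which the H2B gene gained on its partner with both microRNAs, and for 2 H4 genes of which 1 rose and 1 did not. Capitals mark motifs on either strand. CCAAT is the motif that the factor NF-Y binds. The core promoter motif searched was TATAAA. The octamer bound by OCT1, known from H2B promoters, was searched as ATTTGCAT. The pairs are printed on the plus strand, from the base after the start of the H2B gene to the base before the start of the H2A gene, at chr6:26123927-26124171 for H2BC4 and H2AC6 and at chr6:26216689-26216920 for H2BC8 and H2AC8. H4C4 (chr6:26189113-26189362, minus strand) and H4C9 (chr6:27139032-27139281, plus strand) are shown as the 250 bases before their start, on their own strand. All are from RefSeq, GRCh38.p14.
H2BC4 and H2AC6: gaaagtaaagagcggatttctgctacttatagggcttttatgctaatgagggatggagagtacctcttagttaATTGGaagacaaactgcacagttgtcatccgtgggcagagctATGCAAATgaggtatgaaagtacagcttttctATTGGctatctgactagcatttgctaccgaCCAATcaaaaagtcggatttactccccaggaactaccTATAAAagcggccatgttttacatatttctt
H2BC8 and H2AC8: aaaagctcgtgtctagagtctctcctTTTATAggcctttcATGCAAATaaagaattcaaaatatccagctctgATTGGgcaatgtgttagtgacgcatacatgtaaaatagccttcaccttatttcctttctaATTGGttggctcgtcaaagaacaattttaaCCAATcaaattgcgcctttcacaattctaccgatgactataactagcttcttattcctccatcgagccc
H4C4: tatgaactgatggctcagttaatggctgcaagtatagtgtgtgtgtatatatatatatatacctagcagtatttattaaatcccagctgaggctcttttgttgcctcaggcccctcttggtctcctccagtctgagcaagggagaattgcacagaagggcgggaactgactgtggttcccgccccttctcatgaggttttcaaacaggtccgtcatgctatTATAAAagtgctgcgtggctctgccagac
H4C9: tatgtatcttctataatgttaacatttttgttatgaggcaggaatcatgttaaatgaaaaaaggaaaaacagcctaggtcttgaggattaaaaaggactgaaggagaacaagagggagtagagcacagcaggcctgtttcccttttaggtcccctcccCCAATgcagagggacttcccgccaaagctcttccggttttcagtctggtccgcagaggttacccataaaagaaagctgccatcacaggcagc

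Each pair region held 3 CCAAT motifs, 1 TATAAA and 1 octamer, while the H4C4 region held 1 TATAAA and the H4C9 region 1 CCAAT. Of the 34 genes, 32 had a promoter window (250 bases before to 50 after the start) in the RefSeq table. CCAAT was found on either strand in 28 of these 32 genes, against 34.6% of all 35116 promoter windows, and TATAAA in 23 against 11.5%. A gene counted if any of its windows held the motif, while the shares of all windows count each window by itself. Among the 5 H4 genes with a window, CCAAT was found in 1 and TATAAA in 2. H4C5 and H4C8, which rose with both microRNAs, held neither. ATTTGCAT was found in 16 against 1.77%: in 7 of 8 H2A, 8 of 11 H2B and 1 of 4 H3 genes, and in 0 of 4 H1 and 0 of 5 H4 genes. The windows of head-to-head genes overlap and both strands were searched, so 1 site can count for both genes of a pair. The counts per gene are therefore not independent. These are matches of letters, not measured binding sites.

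Histone RNA made up a larger part of both microRNA pulldowns than of the control pulldown. The 34 genes together took 0.603% ± 0.087 (SD, n = 3) of all reads in the control group. The share was 0.928% ± 0.053 (SD, n = 2) after miR-2355 and 1.25% ± 0.061 (SD, n = 3) after miR-1271. On the scale of CPM with library sizes adjusted by edgeR's TMM factors, used for all levels here, the summed level was 4883, 6165 and 6297 in the controls, 9610 and 8529 after miR-2355 and 13162, 14325 and 12525 after miR-1271. The 3 groups did not overlap, and the summed level was 1.57-fold higher with miR-2355 and 2.31-fold higher with miR-1271 than with the control. A sum over the set has no test here. No RNA from before the pulldown was measured, so more cells in S phase, more histone RNA per cell and a better recovery of histone RNA cannot be told apart.

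All 5 classes followed this order, and H1 was the class that differed least between groups. The summed H1 level was 1880 ± 326 CPM (SD, n = 3) in controls, 2590 ± 1.8 (SD, n = 2) after miR-2355 and 3489 ± 263 (SD, n = 3) after miR-1271. For H2A the values were 1380 ± 175, 2145 ± 144 and 3410 ± 358 CPM, and for H2B they were 1694 ± 191, 3011 ± 422 and 4285 ± 525 CPM, with the same n. H3 genes summed to 312 ± 52.6, 484 ± 65.8 and 767 ± 70.4 CPM and H4 genes to 516 ± 43.1, 840 ± 131 and 1386 ± 155 CPM. With miR-1271 the ratio to the control was therefore 1.86 for H1 and 2.45 to 2.69 for the core classes. Core histone genes of a class are known for near-identical coding sequences, so that a read can match several copies, while the H1 genes encode more distinct subtypes. How the counts treat such reads is not given in the sources used here.

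**Figure D1:**
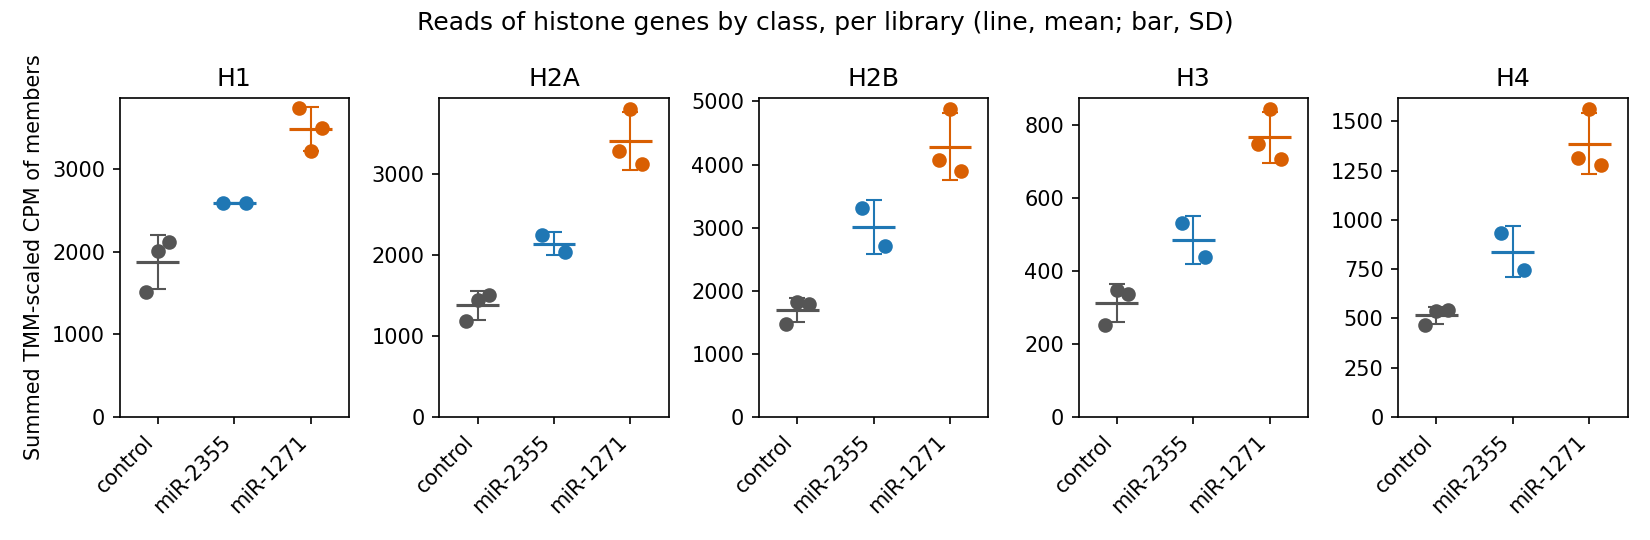
Summed TMM-scaled CPM of the histone genes of each class (vertical axes, each from 0) in every library of the control, miR-2355 and miR-1271 groups; points are libraries, lines group means and bars 1 SD. In each class the miR-1271 libraries are above the miR-2355 libraries, which are above the control libraries.

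The balance between classes within a library, which no scaling factor enters, also shifted. Core histone reads numbered 2.24, 2.06 and 1.97 times the H1 reads in the controls, 2.71 and 2.29 times after miR-2355 and 2.52, 3.45 and 2.58 times after miR-1271. Every microRNA library was above every control library. MiR-1271 replicate 2 was the most extreme, with the lowest value of its group in all 4 H1 genes and the highest in 7 of 8 H2A, all 11 H2B, 3 of 4 H3 and all 6 H4 genes. The ratio of H2B to H2A reads lay at 1.23 ± 0.04 (SD, n = 3) with the control and 1.26 ± 0.02 (SD, n = 3) with miR-1271, and at 1.40 ± 0.10 (SD, n = 2) with miR-2355.

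Against the control, 32 of the 33 tested histone genes were higher with miR-1271 and 0 were lower (edgeR quasi-likelihood test, Benjamini-Hochberg adjusted p under 0.05 over all 17351 genes). Over all genes tested, 17.6% were higher and 22.5% lower (3062 and 3910 genes; scaling by upper quartiles gave 4003 and 3328, by library totals 1896 and 4887). At least 2-fold higher were 29 histone genes, against 3.64% of all genes, and the median log2 fold change was 1.30, against 0.0055 over all genes. In 32 genes every miR-1271 library lay above every control library, against 23.1% of all genes tested. The changes were even: in the H2A, H2B and H3 classes they ran from 1.14 to 1.60, in H4 without H4C9 from 1.24 to 1.57, and in H1 from 0.73 to 1.17. DESeq2, all 3 other scalings, the fit with the replicate number as a block and the omission of any 1 library also called 32 genes higher.

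With miR-2355, 29 of the 33 genes were higher than with the control and 0 were lower, against 12.3% of all genes called higher and 17.5% called lower (2127 and 3044 genes; 2836 and 2615 with upper-quartile factors). H2BC4, H2BC14 and H2AC16, 3 genes, rose at least 2-fold (2.07% of all genes), and the median log2 fold change was 0.66, against -0.0046 over all genes. Without control replicate 1, H2BC14 and H2AC16 stayed called but below 2-fold, at log2 fold changes of 0.84 and 0.82, and H2AC16 was also below it with library totals (0.98) and without miR-2355 replicate 1 (0.94). The genes that did not pass were H1-3, H1-4, H1-5 and H4C9, and for all of them but H4C9 both miR-2355 libraries still lay above the 3 controls. In 32 genes the groups did not overlap in this direction, against 24.9% of all genes tested. With miR-2355 replicate 1 left out, 10 genes were higher, and without replicate 2 the count was 26; the lone library left is then taken to scatter as the remaining groups do. Fewer of all genes tested were called higher in both of these fits too, and the median log2 fold change of the histone genes was 0.52 and 0.81. Control replicate 1 had the lowest CPM of its group in all 33 genes. Without it 23 histone genes were higher with miR-2355 and 32 with miR-1271. Of all 16878 genes then tested, 2044 and 3124 were called higher. The median log2 fold change of the histone genes was then 0.55 and 1.18.

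**Figure D2:**
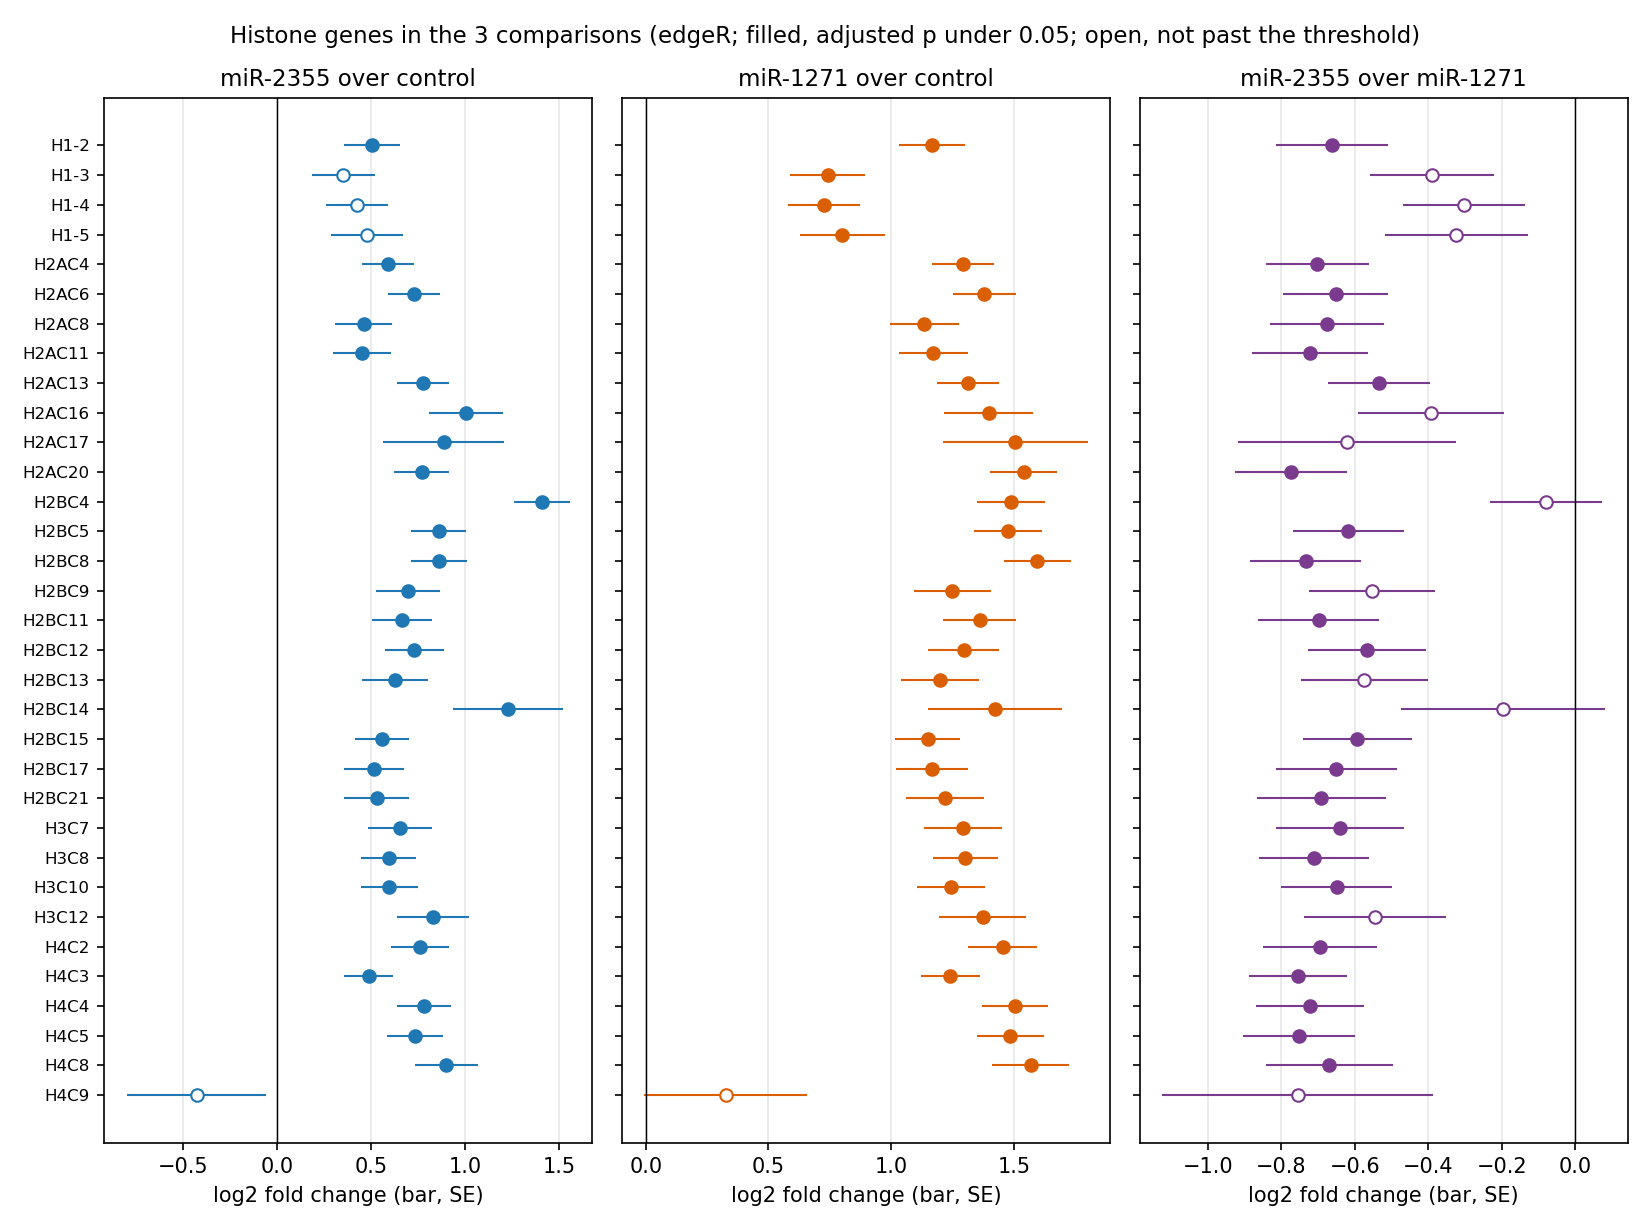
Log2 fold changes (horizontal axes; each panel has its own scale) of the 33 tested histone genes (rows) in the 3 comparisons, with bars of 1 SE; filled points passed an edgeR adjusted p under 0.05 and open points did not. With miR-1271 all points but H4C9 are filled; in the comparison of the microRNAs all points lie below 0, H2BC4 and H2BC14 closest to it.

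Compared directly, 22 of the 33 genes were lower with miR-2355 than with miR-1271 and 0 were higher (edgeR adjusted p under 0.05), against 2.65% of all genes called lower and 3.5% called higher (459 and 608 genes; 261 and 1252 with library totals, which called 15 histone genes lower). All 33 log2 differences were below 0, with a median of -0.65, and in 30 genes both miR-2355 libraries lay below all miR-1271 libraries, against 20.5% of all genes tested. The count rested on few libraries. With replicate 2 of miR-2355 left out it was 0, and with replicate 1 left out 14. Leaving out miR-1271 replicates 1, 2 or 3 gave 12, 8 and 11. Calls over all genes fell too in each of these fits. Without miR-1271 replicates 1, 2 or 3, 263, 191 and 138 of all genes were called lower. The median of the 33 differences stayed between -0.77 and -0.49 over these fits, and it kept its sign where calls were lost. The 22 called genes comprised H1-2, 6 of 8 H2A, 7 of 11 H2B, 3 of 4 H3 and 5 of 6 H4 genes. Control, miR-2355 and miR-1271 libraries stood in this order with no overlap in 29 of the 33 genes. The share of all genes tested with this order was not counted, so the 29 have no background beside them.

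Among linker histones, which bind the DNA that enters and leaves the nucleosome, H1-2 (ENSG00000187837) was the most responsive. Its level was 474, 569 and 609.5 CPM in the control libraries, 787 and 775 with miR-2355, and 1269, 1217 and 1224 with miR-1271. No group overlapped another. H1-2 rose 1.42-fold with miR-2355 (log2 fold change 0.50 ± 0.15 SE, edgeR adjusted p = 0.0175) and 2.24-fold with miR-1271 (1.17 ± 0.14, adjusted p = 5.49e-06), and the microRNAs differed by -0.66 ± 0.15 (adjusted p = 0.0186). The call with miR-2355 was lost without either miR-2355 library, where the log2 fold change was 0.51 in each fit. The call between the microRNAs held in 11 of 17 alternative settings. It was lost, among others, with the replicate block (edgeR adjusted p = 0.0689) and without miR-1271 replicate 1 or 3 (0.0702 and 0.0629).

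H1-4 (ENSG00000168298) and H1-5 changed less. H1-4 stood at 546, 658 and 735 CPM with the control, 824 and 911 with miR-2355, and 1124, 929 and 1156 with miR-1271. Its rise with miR-1271 was 1.66-fold (edgeR adjusted p = 0.000992), and its log2 fold change of 0.42 ± 0.16 with miR-2355 just missed the threshold (adjusted p = 0.0598, and 0.0143 with DESeq2). H1-5 stood at 439, 709.9 and 694 CPM with the control, 892 and 819 with miR-2355, and 1233, 967 and 1010 with miR-1271, so that its control libraries differed among themselves by more than those of H1-4. It rose 1.74-fold with miR-1271, with the highest adjusted p among the called genes of that comparison (edgeR, 0.00169). H1-3, the least abundant of the 4, rose 1.67-fold with miR-1271 (edgeR adjusted p = 0.00106), and its log2 fold change with miR-2355 was 0.35 ± 0.17 (adjusted p = 0.127). The reads of H1-2 numbered 0.868, 0.865 and 0.829 times those of H1-4 in the controls and 1.13, 1.31 and 1.06 times after miR-1271.

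Among the H2A genes, which encode one partner of the H2A-H2B dimer, all 8 rose with each microRNA. H2AC11 (ENSG00000196787), the most abundant H2A row, stood at 362, 443 and 457 CPM with the control, 585 and 565 with miR-2355, and 893, 1068 and 882 with miR-1271. The groups were separate. H2AC11 differed between the microRNAs by -0.72 ± 0.16 on the log2 scale (edgeR adjusted p = 0.0137), a call that held in 13 of 17 alternative settings. Its rise of 1.37-fold with miR-2355 was the smallest of the class, and was not called without control replicate 1 or 3 or either miR-2355 library (adjusted p from 0.052 to 0.148) or with the replicate block (0.0669). H2AC20 (ENSG00000184260), on chromosome 1, stood at 231, 270.1 and 283 CPM, at 463 and 427 CPM, and at 718, 859 and 704 CPM in the same order of groups. It rose 2.91-fold with miR-1271, the most of the class, against 1.70-fold with miR-2355, and it had the largest difference between the microRNAs of all called genes (-0.77 ± 0.15, edgeR adjusted p = 0.00759).

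H2AC16 (ENSG00000276903) was the H2A gene that rose most with miR-2355. It stood at 107, 151 and 173 CPM with the control, 305 and 272 with miR-2355, and 388, 455 and 293 with miR-1271. The microRNA groups overlapped, and the 2.01-fold and 2.63-fold rises differed by -0.39 ± 0.20 (edgeR adjusted p = 0.254), an interval of -0.79 to 0.00 at 2 SE on either side. H2AC17 (ENSG00000278677) had only 5 to 44 reads per library. It stood at 0.977, 1.14 and 1.35 CPM with the control, 2.35 and 1.92 with miR-2355, and 3.72, 3.56 and 2.69 with miR-1271. It rose 2.84-fold with miR-1271 (edgeR adjusted p = 0.000718), while its 1.85-fold rise with miR-2355 was the one that just passed (adjusted p = 0.0469). That call held in 4 of 17 alternative settings, in which its adjusted p ran from 0.0303 to 0.277.

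Like H2BC14, H2BC4 (ENSG00000180596) departed from the other H2B genes in that its microRNA groups overlapped. It had the highest mean level of the H2B rows over all libraries, and stood at 256, 290.0 and 289 CPM with the control, 769 and 706 with miR-2355, and 731, 906 and 700.3 with miR-1271. The microRNA groups overlapped each other and lay far above the controls. H2BC4 rose 2.65-fold with miR-2355 (log2 fold change 1.41 ± 0.15 SE, edgeR adjusted p = 3.35e-06), the largest rise of the set, and 2.80-fold with miR-1271 (1.49 ± 0.14, adjusted p = 5.48e-07). Both calls held in all 17 alternative settings. The difference between the microRNAs was -0.08 ± 0.15 (adjusted p = 0.808; -0.38 to 0.22 at 2 SE on either side, and 0.05 with library totals alone or without miR-1271 replicate 2), where the other H2B genes but H2BC14 ranged from -0.55 to -0.73.

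Set against the rest of its class, H2BC4 had 0.210, 0.189 and 0.193 times the reads of the other 10 H2B genes together in the controls and 0.219, 0.228 and 0.219 times after miR-1271, but 0.303 and 0.352 times after miR-2355. The neighbour that shares its promoter, H2AC6, rose 1.66-fold with miR-2355 (edgeR adjusted p = 0.000895). The ratio of H2BC4 to H2AC6 reads was 1.88, 2.04 and 1.81 in the controls, 2.05, 2.10 and 1.98 after miR-1271, and 3.04 in each miR-2355 library. Both miR-2355 libraries thus lay above the other 6. This ratio was picked after its values were seen and has no test. RefSeq gives H2BC4 a span of 10757 bases with 2 transcripts, against 519 bases for H2AC6. Long spans were also given for H2BC5 (13229 bases), H2BC12 (8566) and H2BC21 (2224), whose differences between the microRNAs were -0.62, -0.57 and -0.69. Whether the span or the transcripts of H2BC4 bear on its ratio was not tested.

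**Figure D3:**
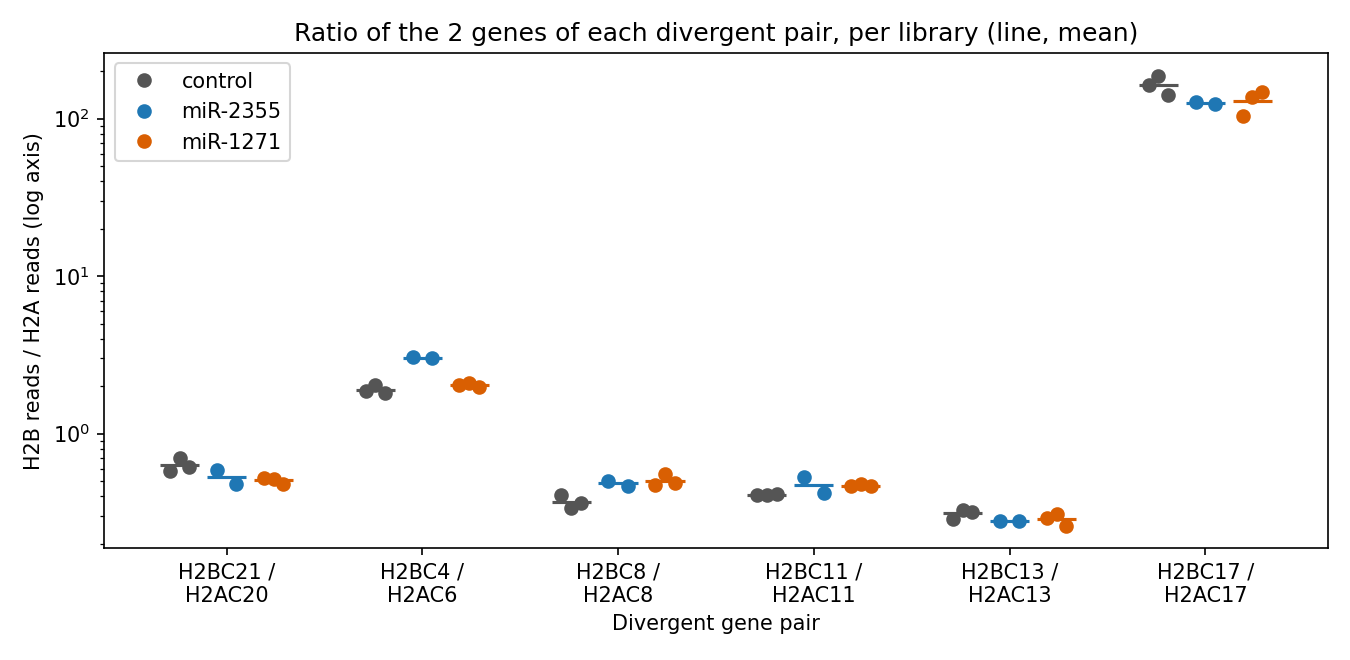
Ratio of H2B to H2A reads (log axis) for the 6 head-to-head pairs, with 1 point per library and a line at each group mean. For H2BC4 and H2AC6 both miR-2355 points lie at 3.04, above all other libraries; the pair with H2AC17 stands above 100 because that row has few reads.

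In no other head-to-head pair did both miR-2355 libraries lie above the other 6. H2BC8 and H2AC8 stood at a ratio of 0.371 ± 0.037 (SD, n = 3) in controls, 0.483 ± 0.025 (SD, n = 2) after miR-2355 and 0.504 ± 0.046 (SD, n = 3) after miR-1271, so that H2BC8 gained on its partner with both. For H2BC11 and H2AC11 the ratios were 0.411 ± 0.004, 0.474 ± 0.080 and 0.467 ± 0.009. For H2BC13 and H2AC13 they were 0.311 ± 0.021, 0.280 (in both libraries) and 0.286 ± 0.024, and for H2BC21 and H2AC20, the pair on chromosome 1, 0.633 ± 0.064, 0.534 ± 0.075 and 0.506 ± 0.022. H2BC17 had 165 ± 23.2 times the reads of H2AC17 with the control, 126 ± 3.8 with miR-2355 and 129 ± 22.3 with miR-1271.

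Of the other H2B genes, H2BC8 (ENSG00000273802) rose most with miR-1271. It stood at 76.3, 85.3 and 88.5 CPM with the control, 169.6 and 133 with miR-2355, and 232, 289.8 and 233 with miR-1271, with no overlap between groups. Its rises were 1.82-fold (edgeR adjusted p = 0.000345) and 3.02-fold (adjusted p = 2.13e-07, the lowest of the set), and the microRNAs differed by -0.73 ± 0.15 (adjusted p = 0.00943). H2BC12 (ENSG00000197903) stood at 278, 342 and 334 CPM with the control, 587 and 467 with miR-2355, and 735, 879 and 725 with miR-1271. It rose 1.66-fold and 2.45-fold, and its difference between the microRNAs was the one that just passed (-0.57 ± 0.16, edgeR adjusted p = 0.0472). That call held in 8 of 17 alternative settings, in which its adjusted p ran from 0.00461 to 0.346. It was lost with library totals (0.0968), the replicate block (0.113) and without control replicate 3, either miR-2355 library or any miR-1271 library.

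H2BC13 and H2BC14 were rarer. H2BC13 stood at 13.1, 15.5 and 17.9 CPM with the control, 25.9 and 21.9 with miR-2355, and 36.1, 41.7 and 29.2 with miR-1271. It rose 1.54-fold and 2.30-fold, and its difference of -0.57 ± 0.17 between the microRNAs just missed the threshold (edgeR adjusted p = 0.0581, and 0.0238 to 0.349 over 17 alternative settings). H2BC14 stood at 5.23, 13.5 and 11.9 CPM with the control, 25.7 and 18.9 with miR-2355, and 23.6, 33.2 and 20.4 with miR-1271. Control replicate 1 was the low one, the microRNA groups overlapped, and the rises of 2.34-fold and 2.68-fold differed by -0.20 ± 0.28 (edgeR adjusted p = 0.727; -0.75 to 0.36 at 2 SE on either side). The rise with miR-2355 was not called without miR-2355 replicate 1 (adjusted p = 0.0797).

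The 4 measured H3 genes, whose protein carries many of the tail modifications of chromatin, moved together. H3C8 (ENSG00000273983), the most abundant, stood at 139, 176 and 169 CPM with the control, 264 and 221 with miR-2355, and 384, 435 and 372 with miR-1271. It rose 1.51-fold (edgeR adjusted p = 0.00583) and 2.47-fold (adjusted p = 1.52e-06), with no overlap between groups. H3C7, H3C10 and H3C12 rose 1.57-fold, 1.51-fold and 1.78-fold with miR-2355 and 2.45-fold, 2.37-fold and 2.59-fold with miR-1271. H3C12 was the one whose difference between the microRNAs did not pass (-0.54 ± 0.19, edgeR adjusted p = 0.102).

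Of the H4 genes, the partners of H3 in the nucleosome core, 5 of 6 rose with each microRNA. H4C3 (ENSG00000197061), the most abundant, stood at 134, 147 and 154 CPM with the control, 217 and 189 with miR-2355, and 335, 361 and 331 with miR-1271. Its rises were 1.40-fold and 2.36-fold, and its difference between the microRNAs had the lowest adjusted p of the set (-0.75 ± 0.13, edgeR adjusted p = 0.0036). H4C8 (ENSG00000158406) stood at 70.05, 73.0 and 78.0 CPM, at 160.4 and 115 CPM, and at 186, 269 and 200.5 CPM, and rose 1.87-fold and 2.97-fold. Its microRNA libraries were spread more widely than its controls.

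H4C4 and H4C5 were alike. H4C4 stood at 101, 115 and 121 CPM with the control, 210.3 and 176 with miR-2355, and 308, 360.3 and 287 with miR-1271, rises of 1.72-fold and 2.84-fold. H4C5 stood at 85.3, 102 and 97.1 CPM, at 179 and 136 CPM, and at 260.1, 295 and 238 CPM, rises of 1.66-fold and 2.80-fold. The groups of both genes were separate.

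H4C9 (ENSG00000276180) was the gene that passed in no comparison. It had 33, 15 and 51 reads in the controls, 37 and 18 with miR-2355 and 23, 29 and 35 with miR-1271, or 1.40, 3.42 and 2.38 CPM, 1.98 and 1.15 CPM, and 2.38, 2.87 and 2.77 CPM. Both microRNA groups overlapped the controls. Its log2 fold change was -0.43 ± 0.37 with miR-2355 (edgeR adjusted p = 0.417) and 0.33 ± 0.33 with miR-1271 (adjusted p = 0.46), and 2 SE on either side of the latter reach from -0.34 to 0.99, below the change of the other H4 genes. RefSeq places H4C9 inside the span of H2BC12, on the opposite strand. Exon positions were not used here and the strand setting of the counts is not given, so whether the 2 rows share reads was not tested.

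**Figure D4:**
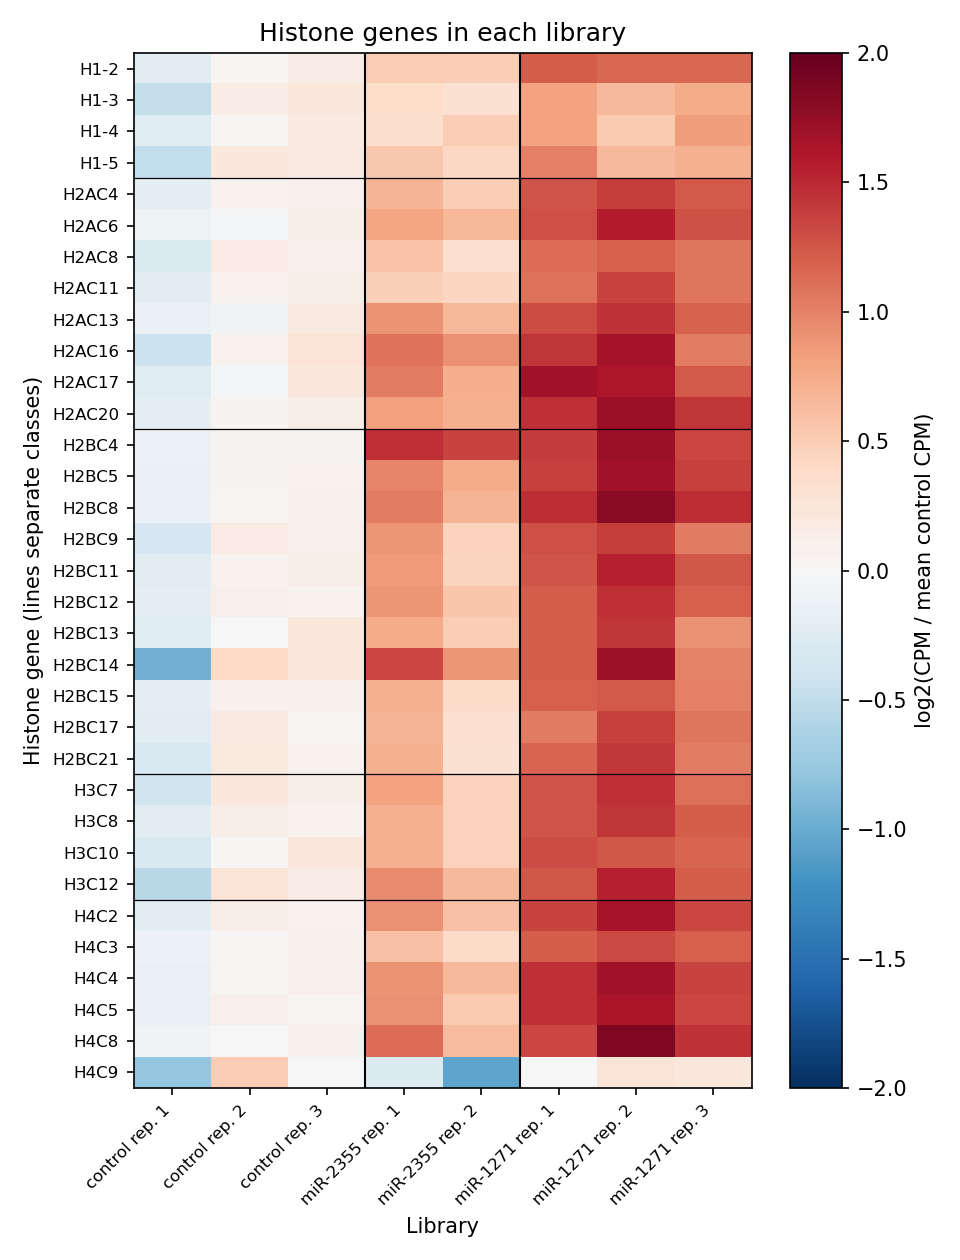
Level of the 33 tested histone genes (rows, in order of class) in each of the 8 libraries (columns), as log2 of CPM over the mean control CPM of the gene; red is higher and blue lower. Apart from H4C9, rows are red in the microRNA libraries; in 27 of 33 rows miR-1271 replicate 2 is the highest of its group, and control replicate 1 is the lowest control in all 33.

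Levels of different genes were compared per kilobase for the 29 genes with a RefSeq span under 1000 bases. In the controls the highest were H2AC11 at 853 ± 103 CPM per kb (SD, n = 3), H1-4 at 821 ± 121, H1-5 at 771 ± 191 and H1-2 at 754 ± 94.8. The ranges of 1 SD around these means overlapped. Part of that spread was common to all genes, with control replicate 1 the lowest control in all 33. H2AC20 followed at 529 ± 55.2. The lowest were H2BC13 at 34.4 ± 5.3, H2BC14 at 21.8 ± 9.4, H4C9 at 6.05 ± 2.54 and H2AC17 at 2.37 ± 0.39. With miR-1271 H2AC11 stood at 1923 ± 212 CPM per kb, H1-2 at 1691 ± 38.6, H2AC20 at 1539 ± 173, H1-4 at 1359 ± 156 and H1-5 at 1343 ± 179 (SD, n = 3). H1-2 stood above H1-4 there. With the control its mean per kb was below that of H1-4, and within libraries its reads numbered 0.868, 0.865 and 0.829 times those of H1-4. Near-identical core histone copies can share reads, so the levels of single core histone genes are uncertain.

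Transcripts with a poly(A) tail have been described for some of these genes, mostly in cells that do not divide. Of the 5 taken as such here, H1-2, H2AC6, H2BC5, H2BC12 and H2BC21, all 5 rose with each microRNA, and all 5 were lower with miR-2355 than with miR-1271 (edgeR adjusted p under 0.05). Their median log2 fold changes were 0.73 with miR-2355 and 1.30 with miR-1271, beside 0.66 and 1.30 for the 28 other tested genes, of which 24 and 27 rose. Between the microRNAs 17 of those 28 were called lower, and the median difference was -0.65 in both sets. H2BC4, whose RefSeq span was also long (10757 bases), was counted among the 28 and was not called lower. H2BC5 rose the most of the 5 with each microRNA, 1.81-fold and 2.78-fold, from 220.2 ± 17.01 CPM (SD, n = 3) with the control. Whether the library kit primed on poly(A) tails is not given in the sources used here.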

How the data were processed

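The authors deposited raw counts for each Ensembl gene ID, 1 column per library, without normalization. They used BWA and featureCounts with the builds hg38 and GRCh38, per the submitters' processing notes, which give no versions. How multiply mapped reads were handled, which matters for near-identical histone copies, is not given in the sources used here, nor are strand setting and annotation release. The members and lists were chosen with earlier results of these data known. Counts of the whole table were fitted with edgeR 4.0.16 in R 4.3.3 (filterByExpr, TMM, quasi-likelihood, 1 mean per group, all 8 libraries), and p-values were adjusted over all genes tested; the procedure was tested on simulated data. SE is the log2 fold change over the square root of F, an approximation. Both comparisons with the control share its 3 libraries. Named genes were, per comparison, the called members with the 6 largest changes in each direction and those just past and just short of the threshold, and the most abundant member of each class; H1-3, H2AC6, H2BC5, H3C7, H3C10 and H3C12 were added after their values were seen, as were the ratios within libraries and the head-to-head pairs. Members matched RefSeq by symbol (34 of 34). Planned lists of histone mRNA processing, histone variants, S phase and cell type markers were not run, since the gene table pairs no Ensembl IDs. Alternatives were other scalings, no filter, DESeq2 1.42.0, a replicate block, fits of 2 groups, other thresholds and each library left out.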

Additional observations from a re-analysis of the deposited data

Results flagged for a closer look

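The effects of the 2 microRNAs under the same contrast with the control differed in 22 histone genes, each by the direct comparison in the edgeR fit (adjusted p under 0.05). All were lower with miR-2355. The log2 differences (miR-2355 minus miR-1271) of the H2A genes were -0.70 for H2AC4, -0.65 for H2AC6, -0.68 for H2AC8, -0.72 for H2AC11, -0.53 for H2AC13 and -0.77 for H2AC20. Those of the H2B genes were -0.62 for H2BC5, -0.73 for H2BC8, -0.70 for H2BC11, -0.57 for H2BC12, -0.59 for H2BC15, -0.65 for H2BC17 and -0.69 for H2BC21. H1-2 differed by -0.66, H3C7 by -0.64, H3C8 by -0.71 and H3C10 by -0.65. H4C2 differed by -0.70, H4C3 by -0.75, H4C4 by -0.72, H4C5 by -0.75 and H4C8 by -0.67. These calls were lost without miR-2355 replicate 2, where fewer of all genes tested were called lower too.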

How the results depend on the processing

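The count of 32 genes higher with miR-1271 held under all 17 alternatives, and the count of 29 higher with miR-2355 stayed within 1.5 times except without miR-2355 replicate 1; leaving out 1 library gave 10 to 29. No alternative called a member lower than the control. In the direct comparison the 22 genes lower with miR-2355 became 8 with the replicate block and 6 at an adjusted p under 0.01, and 0 to 26 on leaving out 1 library. With the block 24 histone genes were higher with miR-2355 than with the control. Calls over all genes tested fell too under these settings. In the direct comparison 459 of all genes were called lower in the main edgeR fit. The block gave 217 and the threshold of 0.01 gave 101. With the block 1541 of all genes were called higher with miR-2355 than with the control, against 2127 in the main fit. Deviations of same-numbered libraries correlated between -0.13 and 0.03, which gave no sign of pairing by replicate number. Centring within groups of 2 or 3 libraries constrains these values, so the check cannot tell if libraries were paired. The summed level differed between the microRNAs by a log2 ratio of -0.56, and by -0.43 when scaled by library totals, where the median of all genes was 0.12. Signs turned only where no call was made: H2BC4 between the microRNAs (0.048 by library totals; -0.14 to 0.053 leaving out 1 library, highest without miR-1271 replicate 2), H2BC14 between the microRNAs (0.0083 when miR-2355 replicate 2 was left out and 0.038 when miR-1271 replicate 2 was) and H4C9 with miR-1271 (-0.0090 without control replicate 1, up to 0.51 without control replicate 2). The cause was not tested. The rows with the fewest reads were H2AC17 (5 to 44 reads per library) and H4C9 (15 to 51); H2AC17 was called with miR-1271 in all 17 alternatives.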
